A study of Homo sapiens with 6 samples.

Results

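The genes described here are the transcriptional coactivators YAP1 and WWTR1 (which encodes TAZ), their DNA-binding partners TEAD1, TEAD3 and TEAD4, the kinase gene LATS2, and 4 genes known as targets of the complex, CTGF, CYR61, ANKRD1 and AMOTL2. They were taken by symbol from the deposited count table, in which all 10 were found, CTGF and CYR61 under these older symbols rather than CCN2 and CCN1, out of 27469 genes with values. RNA was read by 3' sequencing in HMC3, an immortalised human cell line labelled as microglia, in 3 libraries labelled Control and 3 of cells given IL-33 for 24 h. IL-33 (interleukin-33) belongs to the interleukin-1 cytokines, and the comparison asks which transcripts differ after exposure to it. The labels name no genotype, dose or vehicle, and do not tie the libraries to separate cultures. The p-values therefore rest on the spread among 3 libraries a group, and that spread may be purely technical.

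YAP and TAZ carry signals of cell shape, tension and contact to the nucleus. They do not bind DNA themselves but dock on TEAD proteins. In the Hippo pathway the kinases LATS1 and LATS2 phosphorylate YAP and TAZ and hold them in the cytoplasm, so the messenger levels measured here do not show how much YAP or TAZ was active. LATS2 and AMOTL2 are themselves induced by the complex and restrain it. CTGF and CYR61, secreted matricellular proteins of the CCN family, and ANKRD1, an ankyrin repeat protein, are the targets most often used as its readout. TEAD proteins bind the sequence GGAATG.

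Promoter windows from 250 bases before to 50 after the transcript start were found in RefSeq (GRCh38.p14) for 7 of the 10 genes and are shown where they hold GGAATG before the start. CYR61, TEAD1 and TEAD4 were not matched. GGAATG was searched on both strands (CATTCC on the other), with overlaps allowed and none found among these genes, and 14% of 35116 such windows held it at least once, 1.37% at least 2 times and 0.128% at least 3 times. The CTGF window held it 3 times, beginning 169, 104 and 95 bases before the start, and the ANKRD1 window 2 times, 220 and 128 bases before. These distances are from the RefSeq starts. In GENCODE, ANKRD1 begins at 90921276 on the minus strand, and the match at 90921210 to 90921215 lies inside that gene. The stretches below run 5′ to 3′ on the strand of the gene, with each match in capitals, for CTGF (chr6:131951373-131951622, minus strand), ANKRD1 (chr10:90921088-90921337, minus strand), AMOTL2 (chr3:134374484-134374543, minus strand) and YAP1 (chr11:102110258-102110317, plus strand).
CTGF: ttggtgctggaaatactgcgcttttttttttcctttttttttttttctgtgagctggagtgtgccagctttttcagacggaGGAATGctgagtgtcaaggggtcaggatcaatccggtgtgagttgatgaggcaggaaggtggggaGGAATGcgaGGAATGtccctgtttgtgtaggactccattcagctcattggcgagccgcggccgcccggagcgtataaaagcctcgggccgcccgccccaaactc
ANKRD1: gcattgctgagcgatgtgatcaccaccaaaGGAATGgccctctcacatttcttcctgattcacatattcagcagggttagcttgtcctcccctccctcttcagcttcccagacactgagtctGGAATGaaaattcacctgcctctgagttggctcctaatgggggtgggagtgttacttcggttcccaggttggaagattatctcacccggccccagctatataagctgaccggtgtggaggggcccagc
AMOTL2: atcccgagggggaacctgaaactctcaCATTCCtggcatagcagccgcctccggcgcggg
YAP1: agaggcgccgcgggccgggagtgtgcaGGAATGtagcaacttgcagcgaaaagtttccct
AMOTL2 had 2 start sites, and the match lay 69 bases before one of them and after the other, while YAP1 had 1 match, 162 bases before its start. LATS2 had 1 match, 9 bases after its RefSeq start at 21061586. In GENCODE the gene begins at 21061547 on the minus strand, so by that annotation the match lies before the start. The windows of WWTR1 (2 start sites) and TEAD3 held none. A match is a description of the letters and no measurement of binding.

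Libraries held between 5739947 and 10217529 counts. Control 3 was the shallowest and stood apart from the rest: among 8331 genes at a mean of 10 CPM (counts scaled to a total of 1e6) or more, it had a level below 0.5 times that of every other library in 95 genes (1.14%), where each other library did so in at most 1 gene, and it had a level above 2 times that of every other library in 0 genes. Log2 fold changes of the 10 genes that move by over 1.5 times without Control 3 are therefore given both ways. Of 12 microglia markers, 6 (SPI1, TYROBP, ITGAM, CX3CR1, TMEM119 and P2RY12) were at 0 counts in all 6 libraries, and the list summed to between 3.58 and 8.32 CPM in Control and between 3.89 and 6.84 CPM with IL-33. The fibroblast and mesenchymal list summed to between 5572 and 6603 CPM in Control and between 5821 and 6394 CPM with IL-33, most of it from FN1, VIM and COL1A1, while COL3A1 and LUM were at 0. The listed markers of the labelled cell type were thus counted at 0 or near it, and the cells are called by the name of the line, HMC3. An exact 0 in this table need not mean that a gene is silent, as with MOB4 below. Of 27469 genes, 10205 were at 0 in all 6 libraries.

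None of the 10 genes passed the test for a change with IL-33. In edgeR's quasi-likelihood (QL) test, with p-values adjusted by Benjamini-Hochberg (BH) at 0.05, 0 members passed, against 0 of 12125 genes tested (0%), and every member had a BH-adjusted p of 0.999. At an unadjusted p under 0.05 there were also 0 members, against 295 genes (2.43%), while DESeq2 and limma-voom called 0 members as well. In 0 of the 10 did the 3 IL-33 values all lie above or all below the 3 Control values, against 8.06% of the genes tested (4.54% above, 3.51% below). The log2 fold change was below 0 in 7 members and above 0 in 3, with a median of -0.07 against -0.01 over all genes tested, of which 51.1% lay below 0. Without Control 3, 9 members lay below 0 and 1 above, with a median of -0.10 against 0.00 over all genes. In bulk RNA, a change in the number of expressing cells and a change in RNA per cell cannot be told apart.

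The 10 genes fell into 2 tiers of abundance. A 3' library gives about 1 tag per transcript whatever its length, so levels of different genes may be set side by side, with the limit that tags beyond an annotated 3' end are not counted. CYR61 averaged 673 CPM over the 6 libraries, ANKRD1 506 CPM, AMOTL2 428 CPM, CTGF 425 CPM and TEAD1 304 CPM, and these ranked 188, 255, 315, 319 and 509 among the 12125 genes tested. The other 5 averaged between 60.6 CPM (TEAD3) and 83.1 CPM (WWTR1). In each of the 6 libraries CTGF lay above TEAD1 and TEAD1 above WWTR1, and the ranges of these pairs did not overlap. All other neighbours in the order had overlapping ranges: AMOTL2 lay above CTGF in 4 of 6 libraries and LATS2 above YAP1 in 3 of 6. CYR61 lay below ANKRD1 in Control 3 alone, where at 212 CPM it was also below CTGF, AMOTL2 and TEAD1.

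**Figure D1:**
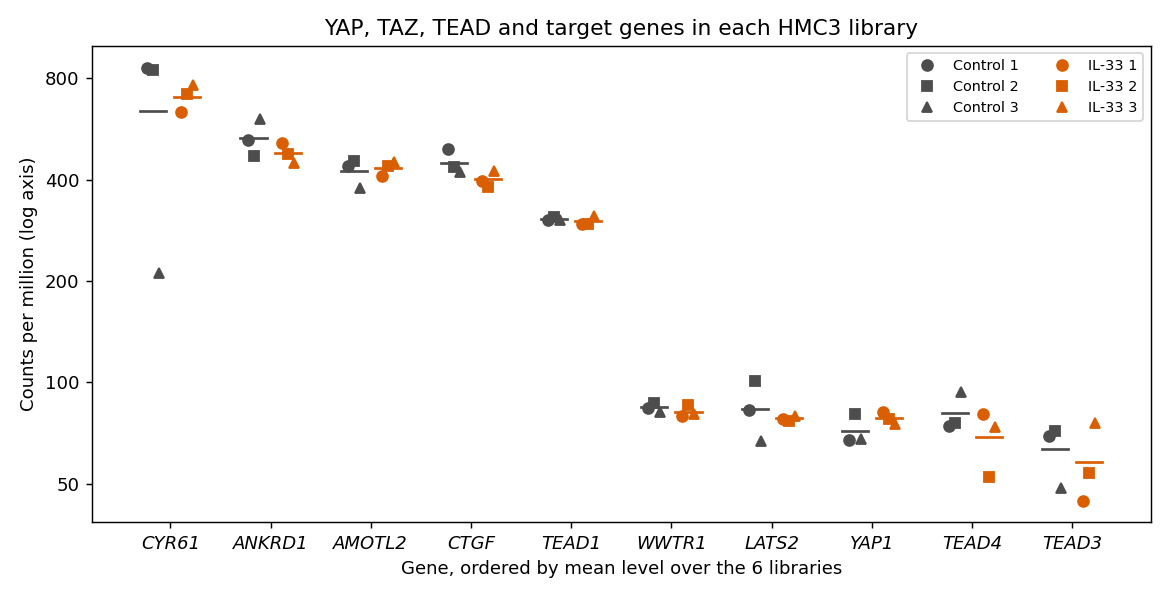
Level of each gene in CPM on a log axis, with genes ordered by mean level. Points are libraries (grey for Control, orange for IL-33, shape for replicate) and lines are group means. CYR61 in Control 3, at 212 CPM, lies far below its other 5 values, while the groups overlap in the other 9 genes, of which TEAD3 and TEAD4 are the most spread.

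The coactivators were measured at similar levels. In the GENCODE annotation antisense genes overlap YAP1, WWTR1, TEAD1, LATS2 and CTGF, in each case away from the 3' end, and with no strand setting stated, reads of such pairs cannot be told apart. YAP1, on chromosome 11 from 102110461 to 102233423 (plus strand, GRCh38), measured 67.3, 80.3 and 67.7 CPM in Control and 81.8, 77.9 and 75.4 CPM with IL-33. Controls 1 and 3 were lower than the rest, and Control 2 lay inside the IL-33 range. The means of 71.8 ± 7.40 and 78.4 ± 3.23 CPM (SD, n = 3 each) gave a log2 fold change of 0.13 ± 0.13 (SE), with a 95% interval from -0.14 to 0.39. WWTR1, on chromosome 3 from 149517235 to 149736714 (minus strand), measured 84.1, 87.0 and 81.6 CPM in Control and 79.4, 85.7 and 80.5 CPM with IL-33. IL-33 1 and IL-33 3 lay just below the lowest Control value, and IL-33 2 inside the Control range. Its log2 fold change was -0.04 ± 0.12, with an interval from -0.29 to 0.20, and -0.06 without Control 3. An antisense gene inside WWTR1, WWTR1-AS1, had 21 counts in all against 4328 for WWTR1.

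Within each library the balance of TAZ to YAP messenger does not depend on how libraries are scaled. WWTR1 made up 55.5%, 52.0% and 54.7% of the summed WWTR1 and YAP1 counts in Control, while the IL-33 libraries had 49.2%, 52.4% and 51.6%. The IL-33 shares were on the low side, but that of IL-33 2 lay above that of Control 2. The difference of -2.99 percentage points did not pass a two-sided exact permutation test (p = 0.2, 0.6 after Benjamini-Hochberg adjustment over 3 shares), where 3 against 3 allows no p below 0.1.

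TEAD1 was the main TEAD messenger and the steadiest gene of the set. TEAD1, on chromosome 11 from 12674591 to 12944483 (plus strand), measured 304, 309 and 304 CPM in Control and 296, 296 and 313 CPM with IL-33. Its standard deviation over the 6 libraries was 0.03 on the log2 scale, against a median of 0.19 for genes at 10 CPM or more, so that only 13 of these 8331 genes varied less. The log2 fold change was -0.02 ± 0.09, with an interval from -0.21 to 0.17.

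TEAD3 and TEAD4 varied more, in different libraries. TEAD3, on chromosome 6 from 35473597 to 35497076 (minus strand), measured 69.2, 71.7 and 48.7 CPM in Control and 44.5, 53.7 and 75.8 CPM with IL-33. Low and high values occurred in both groups, with IL-33 1 lowest and IL-33 3 highest. The log2 fold change was -0.13 ± 0.19 (interval from -0.54 to 0.28), and single libraries moved it: it was 0.03 without IL-33 1, -0.37 without IL-33 3 and -0.28 without Control 3. TEAD4, on chromosome 12 from 2959330 to 3040673 (plus strand), measured 74.4, 76.0 and 93.4 CPM in Control and 80.7, 52.3 and 73.7 CPM with IL-33. Control 3 was the highest and IL-33 2 the lowest, and the other 4 lay close together. Its log2 fold change of -0.24 ± 0.15 (interval from -0.56 to 0.09) was the most negative of the 10 with all libraries. It was -0.07 without IL-33 2, -0.37 without IL-33 1 and -0.13 without Control 3, where those of TEAD3, LATS2, CTGF and CYR61 were more negative.

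Of the TEAD1, TEAD3 and TEAD4 counts in the Control libraries, TEAD1 supplied 67.9%, 67.7% and 68.2%. In the IL-33 libraries it supplied 70.3%, 73.6% and 67.7%. The Control shares were nearly identical, and the IL-33 shares ran from just below them to 73.6%. The difference of 2.60 percentage points did not pass (two-sided exact permutation p = 0.4, 0.6 after adjustment over the 3 shares). The fourth paralogue, TEAD2, which is not among the 10, averaged 17.3 CPM with a log2 fold change of 0.09 ± 0.24.

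LATS2, on chromosome 13 from 20973032 to 21061547 (minus strand), is both an inhibitor of YAP and TAZ and one of their targets. It measured 82.6, 101 and 67.0 CPM in Control and 77.7, 77.0 and 79.7 CPM with IL-33. The Control values lay on both sides of the tight IL-33 values, with Control 2 highest and Control 3 lowest. The log2 fold change was -0.10 ± 0.14 (interval from -0.39 to 0.19), and it was 0.06 without Control 2 and -0.23 without Control 3. The related kinase gene LATS1 averaged 9.09 CPM, with a log2 fold change of 0.28 ± 0.31. The annotated antisense gene LATS2-AS1 lies inside LATS2 and is not a row of the table.

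AMOTL2, on chromosome 3 from 134355874 to 134375479 (minus strand), encodes an angiomotin-like scaffold that binds YAP and TAZ at junctions. It measured 440, 453 and 377 CPM in Control and 409, 439 and 452 CPM with IL-33. Control 3 was lowest and the other 5 were close. The log2 fold change was 0.03 ± 0.10 (interval from -0.17 to 0.24), and -0.04 without Control 3. A pseudogene of the ribosomal protein gene RPL39 (RPL39P5) covers the 3' end of AMOTL2 on the same strand in GENCODE release 29 and is not a row of the table. How tags there were counted is not stated.

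ANKRD1, on chromosome 10 from 90912096 to 90921276 (minus strand), measured 524, 469 and 605 CPM in Control and 515, 475 and 447 CPM with IL-33. Control 3 was the highest of the 6 and IL-33 3 the lowest, with the rest mixed. The log2 fold change was -0.15 ± 0.10 (interval from -0.37 to 0.07), and -0.05 without Control 3.

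CTGF, on chromosome 6 from 131948176 to 131951373 (minus strand), measured 493, 435 and 420 CPM in Control and 396, 381 and 426 CPM with IL-33. IL-33 3 lay above Control 3, and the other IL-33 values were below all Control values. The means were 450 ± 38.7 and 401 ± 22.6 CPM (SD, n = 3 each), a log2 fold change of -0.17 ± 0.10 (interval from -0.37 to 0.04), with the smallest unadjusted p of the 10 genes (0.1003 in the edgeR QL test).

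CYR61, on chromosome 1 from 85580761 to 85583962 (plus strand), was the most abundant and the most variable of the 10. It measured 861, 849 and 212 CPM in Control and 636, 717 and 763 CPM with IL-33. Control 3 had 0.333 times the level of the next lowest library, and the IL-33 values lay between it and the other Controls. The means were 640 ± 371 and 705 ± 64.5 CPM (SD, n = 3 each), and the log2 fold change of 0.14 ± 0.59 had an interval from -1.45 to 1.72. On the fold scale that interval ran from 0.366 to 3.29, so neither a fall to 0.4 times nor a 3-fold rise could be told from no change. CYR61 was the sole member whose interval reached beyond -1 to 1, and 96.9% of genes at 10 CPM or more had one inside these bounds.

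**Figure D2:**
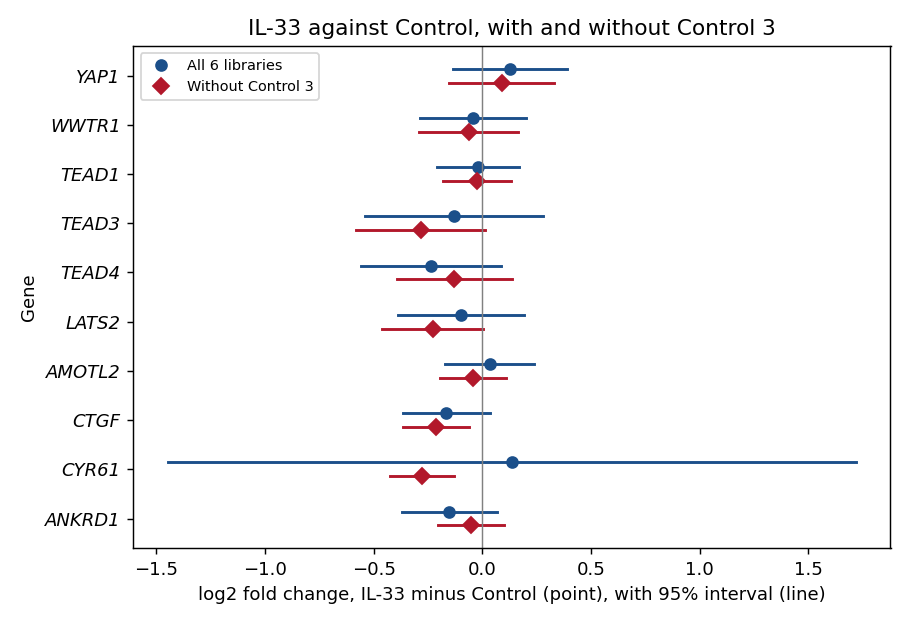
Log2 fold change of IL-33 minus Control for each gene (point) with its 95% interval (line), from all 6 libraries (blue) and without Control 3 (red). For 9 genes both intervals lie within -1 to 1, while that of CYR61 runs from -1.45 to 1.72 with all libraries and from -0.43 to -0.13 without Control 3. Without Control 3 the interval of CTGF also lies below 0, from -0.37 to -0.06, and the estimate of TEAD3 is as negative as that of CYR61.

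The low CYR61 value of Control 3 was not matched in size by its paralogue CTGF or by the other 3 targets among the 10 genes. In Control 3, CYR61 lay 1.84 log2 units below the mean of the other 5 libraries (-1.84), CTGF was level with it (-0.02), AMOTL2 and LATS2 were lower (-0.22 and -0.31) and ANKRD1 was higher (0.32). YAP1 (-0.17), WWTR1 (-0.03) and TEAD1 (0.00) differed little, while TEAD3 (-0.34) and TEAD4 (0.40) went opposite ways. The median absolute deviation of Control 3 over genes at 10 CPM or more was 0.23. Control 3 was the lowest of the 6 libraries for 3 members and the highest for 2, 5 of 10 together. Among genes at 10 CPM or more it was the lowest in 27.3%, the highest in 30.1% and either in 57.4%.

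CYR61 made up 63.6% and 66.1% of the summed CYR61 and CTGF counts in Controls 1 and 2, 33.5% in Control 3, and between 61.6% and 65.3% in the IL-33 libraries (61.6%, 65.3% and 64.2%). The 95% Wilson interval in Control 3 ran from 31.98% to 35.1%, far from the other 5 shares. Such intervals cover counting error only, here at 1171 CYR61 counts, and what lay behind the low share was not tested. The mean share was 9.30 percentage points higher with IL-33, which did not pass (two-sided exact permutation p = 0.8, 0.8 after adjustment over the 3 shares), and without Control 3 it was -1.13.

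**Figure D3:**
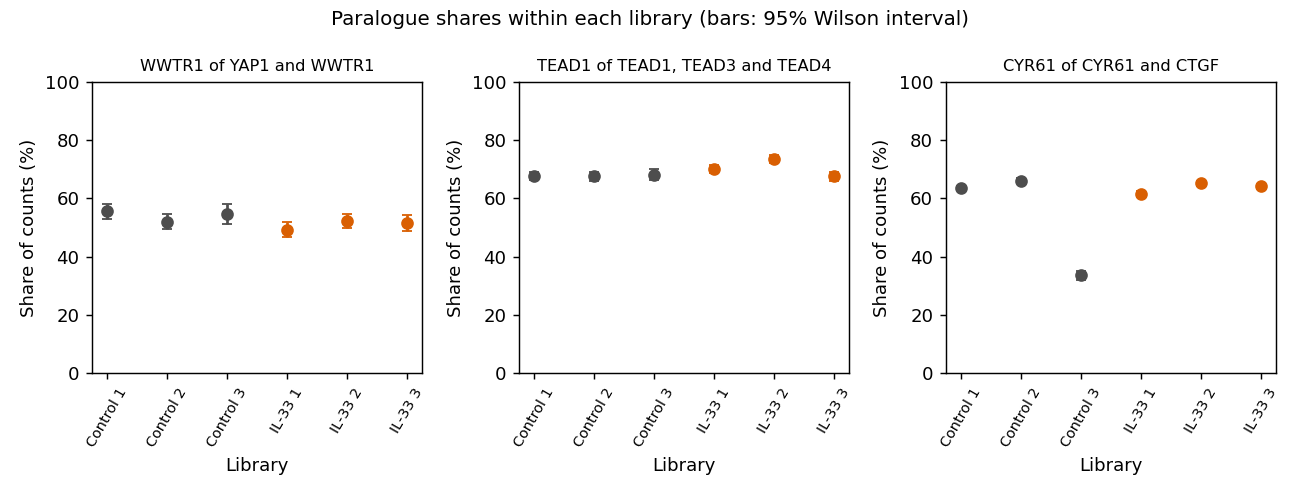
Share of counts in percent for WWTR1 within YAP1 and WWTR1, TEAD1 within TEAD1, TEAD3 and TEAD4, and CYR61 within CYR61 and CTGF, by library, with 95% Wilson intervals (grey for Control, orange for IL-33). The shares lie within a few points of each other except that of CYR61 in Control 3, at 33.5% against 61.6% to 66.1% elsewhere.

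Among the 95 genes at 10 CPM or more with less than 0.5 times the level of every other library in Control 3, CYR61 had the highest mean level, ahead of TMSB4X (thymosin beta 4, which binds actin monomers) at 247 CPM. By the size of the drop it was number 25 of the 95. In THOC3, of the THO complex of messenger export, Control 3 had 0.0581 times the level of the next lowest library. What part the library-wide features of Control 3, its depth among them, have in the CYR61 value was not tested.

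**Figure D4:**
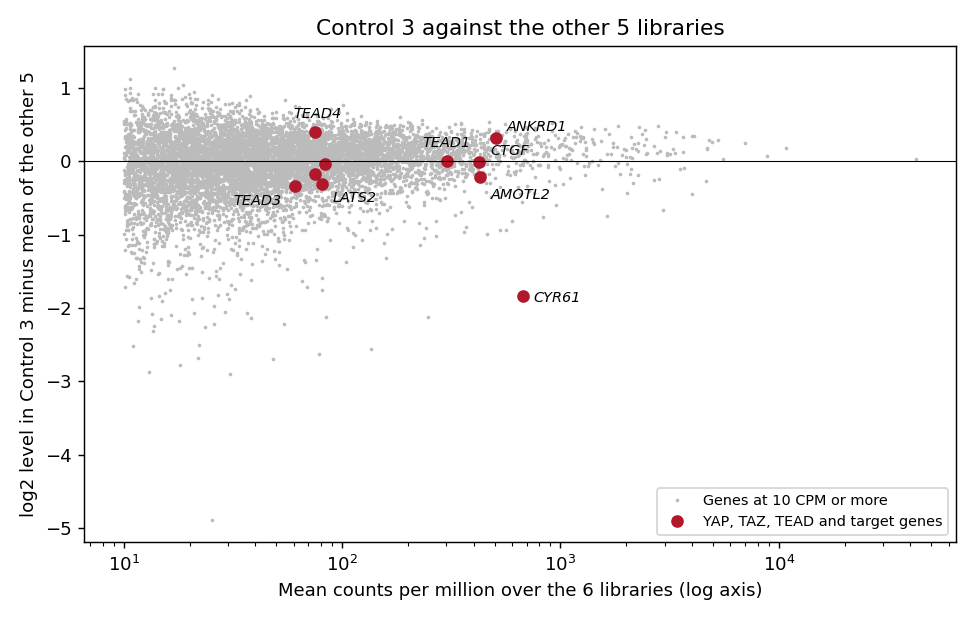
Log2 level in Control 3 minus the mean of the other 5 libraries, against mean CPM on a log axis, for the 8331 genes at 10 CPM or more (grey) and the 10 genes described (red; the unlabelled points are YAP1 and WWTR1). CYR61, at -1.84, lies well below other genes of its abundance, and the other 9 lie between -0.34 and 0.40.

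Without Control 3, both CCN genes had negative log2 fold changes that did not pass the test. CYR61 had a log2 fold change of -0.28 ± 0.07 with an unadjusted p of 0.000349 and an adjusted p of 0.221, and CTGF -0.21 ± 0.08 with 0.00717 and 0.556, by the edgeR QL test with BH adjustment. For both, the 3 IL-33 values lay below the 2 remaining Control values, as they did for LATS2. Of 12611 genes tested without Control 3, 6.30% had an unadjusted p under 0.05, 2.92% with a lower level, and 0.0476% passed the adjusted test. The 2 groups did not overlap in 22.1% of them, and in 11% the IL-33 libraries were the lower ones. For CYR61 this direction is the opposite of that with all libraries, and it rests on leaving out the library that went against it. For CTGF the direction was negative with each library left out in turn, from -0.21 to -0.09. The same held for WWTR1, TEAD1, TEAD4 and ANKRD1. The separation of the groups in CTGF and LATS2 also appeared only without Control 3. With it, CTGF in Control 3 (420 CPM) lay below IL-33 3 (426 CPM), and LATS2 was lowest in Control 3.

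Genes elsewhere in the pathway gave a like picture. Of 16 genes of the Hippo kinase cassette and its upstream regulators, 15 were tested, 0 changed in either direction, and 4 had a log2 fold change above 0 (median -0.06, against -0.01 over all genes tested). The 4 at 10 CPM or more with the smallest p did not pass. They were FRMD6, a FERM domain protein upstream of the kinases (-0.27 ± 0.13), SAV1, the scaffold of the MST kinases (-0.22 ± 0.14), WWC2, a relative of KIBRA (0.10 ± 0.11), and STK4, which encodes MST1 (-0.09 ± 0.09). WWC2 was the sole one of the 15 with IL-33 values all above the Control values, against 4.54% of all genes, and 0 had them all below. Without Control 3, FRMD6 had -0.38 with an unadjusted p of 0.00104 and an adjusted p of 0.376 by the edgeR QL test, the sole one of 16 tested with an unadjusted p under 0.05, against 6.30% of all genes.

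Of 12 cofactors and binding partners, 10 were tested and 0 changed, with 7 above 0 (median 0.07), while VGLL1 and VGLL2 had 0 counts. VGLL3, a Vestigial-like TEAD partner, was the well expressed one of its family at 149 CPM (-0.13 ± 0.11), against 18.2 CPM for VGLL4 (0.00 ± 0.24). The angiomotin gene AMOT, at 11.1 CPM, had 0.31 ± 0.29, its relative AMOTL1 -0.16 ± 0.16, and AJUBA, a LIM protein that binds LATS, 0.17 ± 0.17. AMOTL2 thus had by far the highest level of the 3 angiomotin genes, at 428 CPM against 44.7 and 11.1 CPM.

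Of 11 genes of STRIPAK, the phosphatase complex that opposes the MST kinases, 10 were tested, 0 changed and 5 were above 0 (median 0.00). MOB4, the untested one, was listed at 0 in all libraries although it is a broadly expressed gene, so an exact 0 in this table need not mean that a gene is silent. STRN3 (-0.19 ± 0.11), STRN4 (-0.30 ± 0.18), CTTNBP2NL (0.10 ± 0.14) and FGFR1OP2 (0.10 ± 0.19) had the smallest p, and STRN3 was lower in each IL-33 library than in any Control, 1 of 10 against 3.51% of all genes.

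Of 17 other genes used as YAP and TAZ targets, 16 were tested and 0 changed, with 12 below 0 (median -0.09) and FOXF2 at 0 counts. AXL, a receptor tyrosine kinase at 445 CPM, had -0.11 ± 0.09 and its IL-33 values were each under the lowest Control value. The same held for NT5E, an ectonucleotidase at 3.06 CPM (-0.77 ± 0.51), and for no other of the 16, against 3.51% of all genes. PTPN14, a phosphatase that restrains YAP, had -0.12 ± 0.11. FJX1 (-0.20 ± 0.18) and the exchange factor gene ARHGEF17 (0.15 ± 0.14) completed the 4 at 10 CPM or more with the smallest p. The most abundant, CCDC80, a secreted matrix protein at 1077 CPM, had 0.06 ± 0.09. CRIM1, a membrane protein with cysteine-rich repeats, was also low in Control 3, at 212 CPM against 485 and 463 CPM in the other Controls and 286, 343 and 427 CPM with IL-33. Its log2 fold change was -0.14 ± 0.38, and -0.43 without Control 3 (unadjusted p of 0.0102, adjusted 0.6525, edgeR QL test). Without Control 3 the list again had 12 of 16 below 0, with a median of -0.10. In that setting 8 of the 16 (AXL, F3, IGFBP3, CRIM1, GADD45A, NT5E, TGFB2 and RBMS3) had all 3 IL-33 values under both Controls, against 11% of all genes, while 0 passed the adjusted test. In F3 and IGFBP3, as in CRIM1, Control 3 was below the mean of the other 5 libraries (-0.64 and -0.54, and -0.89 for CRIM1, on the log2 scale). It was the lowest library of all in these and in GADD45A, TGFB2 and RBMS3, from 0.742 (CRIM1) to 0.980 (IGFBP3) times the next lowest. In these genes the separation rests on leaving out the library that went against it. Only AXL and NT5E were also separate with all libraries. Apart from AXL, PTPN14, FJX1 and ARHGEF17, the genes of this list, and MOB4 and VGLL4 above, were named after their values were seen.

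**Figure D5:**
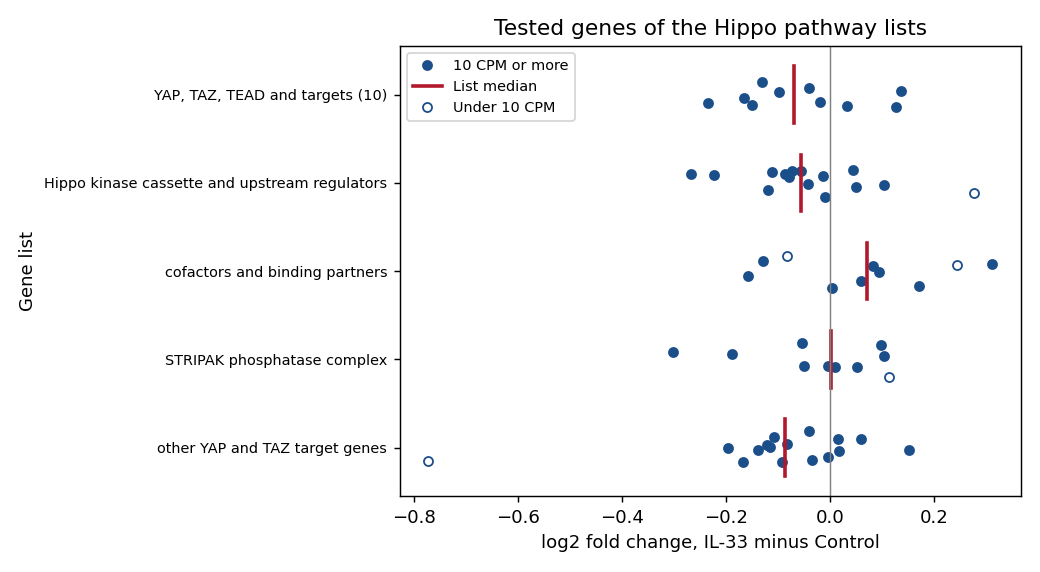
Log2 fold change of IL-33 minus Control for each tested gene of the 5 lists (filled at 10 CPM or more, open below), with the list median in red. Every list centres within 0.1 of 0, and the one point beyond -0.4 is NT5E, at 3.06 CPM.

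The genes whose levels followed these most closely over the 6 libraries are given as a description, since many of the 8321 genes compared reach a high correlation over so few libraries. For YAP1 they were WASF3, a regulator of actin branching (Pearson's r 0.98), the small nucleolar RNA SNORD50A (0.98) and PUM2, an RNA-binding repressor (0.98). For CTGF they were RGMB, a co-receptor for bone morphogenetic proteins (0.99), CDKN2C, an inhibitor of cyclin-dependent kinases (0.96), and COPE, a subunit of the COPI coat (0.96). For CYR61 they were SOCS3, a feedback inhibitor of cytokine signalling, DTD1, a proofreading enzyme of charged transfer RNAs, and TMSB4X (0.9985, 0.9976 and 0.9962), and 547 genes had an r of 0.9 or more with CYR61 against 54 with YAP1 and 41 with CTGF. SOCS3 measured 37.8, 36.3 and 9.41 CPM in Control and 27.3, 33.2 and 34.1 CPM with IL-33. Its Control 3 value was far below the rest, as in CYR61, and without Control 3 the r with CYR61 was 0.97 over 5 libraries. For DTD1 and TMSB4X it was then 0.948 and 0.928. The count of 547 genes includes Control 3, in which CYR61 was far below its other values, and was not taken without it.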

How the data were processed

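RNA was extracted with TRIZOL and read with Lexogen's 3' forward QuantSeq kit, per the labels' protocols. The authors deposited whole-number read counts per gene symbol for the 6 libraries. Per the submitters' processing notes, HTSeq 0.6.1, STAR 2.7.5a and edgeR were used on hg38, in roles not stated. For the annotation, the strand setting and filters nothing is given in the sources used here. Of 27470 rows, 1 without values was left out.

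The test was edgeR's (version 4.0.16, R 4.3.3): filterByExpr (count minimum 10, total minimum 15), TMM scaling, the robust quasi-likelihood test on group alone, and BH adjustment over all 12125 genes tested. CPM used TMM-scaled library sizes, log2 levels a prior count of 2. A gene at 0 counts allows up to 3 counts, which is between 0.294 and 0.523 CPM. This bound covers sampling alone, and a gene such as MOB4 may lie above it. Paralogue shares were compared by two-sided exact permutation. Alternatives were DESeq2 1.42.0, limma-voom (limma 3.58.1), 2 other scalings, 2 other filters, the replicate number as a block and each library left out. The edgeR test was also run on simulated counts, in which no library was set apart as Control 3 was. The outcome is not given here. Libraries of a group differed beyond sampling noise, and none were merged. The chi-square per degree of freedom was 15.9 and 14.8 for the Control pairs with Control 3. For the other pairs it ran from 5.56 to 7.46.

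The members and lists were chosen with earlier results of these data known. By rule the text names all members, TEAD2 and LATS1, and up to 4 genes per pathway list with the smallest p at 10 CPM or more. The rule adds the 3 genes closest in pattern to each of YAP1, CYR61 and CTGF. Other genes of the pathway lists, and THOC3, were named after their values were seen. Lists of epithelial, endothelial, neuron and astrocyte markers were also checked: the epithelial list summed to between 597 and 732 CPM, nearly all KRT18, and the endothelial and the neuron and astrocyte lists to at most 2.77 and 7.31 CPM. Positions came from GENCODE release 29 on GRCh38 by symbol, promoter sequences from RefSeq (GRCh38.p14).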

Additional observations from a re-analysis of the deposited data

How the results depend on the processing

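The count of 0 changed members was the same under all 13 alternatives, which were chosen with earlier results of these data known. The count of 0 changed genes in the whole table was 3 without the low-count filter, 1 by DESeq2 and from 0 to 6 with a library left out (6 without Control 3), and 0 under the other alternatives; none of these genes was a member, and the cause was not tested. Of 130 log2 fold changes of members under an alternative, 126 kept their direction and 4 reversed: LATS2 without Control 2 (0.0593), CYR61 and AMOTL2 without Control 3 (-0.28 and -0.0444) and TEAD3 without IL-33 1 (0.03). With a library left out the share differences ran from -4.02 to -2.07 percentage points for WWTR1, from 1.05 to 4.04 for TEAD1 and from -1.13 (without Control 3, reversed) to 15.2 for CYR61. With a library left out, the log2 fold change ran from -0.37 to 0.03 for TEAD3, from -0.37 to -0.07 for TEAD4, from -0.229 to 0.0593 for LATS2, from -0.28 to 0.41 for CYR61 and from -0.0444 to 0.0860 for AMOTL2. CYR61 moved most between fits of all libraries, from 0.13 to 0.35. No label ties libraries of the same number together, and same-numbered deviations from the group means correlated at -0.086, 0.027 and -0.136. With the replicate block 0 genes and 0 members changed, and 213 genes had an unadjusted p under 0.05 against 295. The depth of 5739947 to 10217529 counts left every member with at least 269 counts in each library.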
